A study of Schizosaccharomyces pombe with 8 samples.

Results

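The transcripts of 8 genes that form the switch for entry into mitosis in the fission yeast Schizosaccharomyces pombe were followed: wee1, mik1, cdc25, pyp3, cdc2, cdr1, cdr2 and pom1. They were taken as the rows of the authors' deposited table whose gene symbol is one of these names, and all 8 were found among 7092 genes. RNA had been sequenced from 8 libraries in 4 groups of 2. The groups were a strain labelled ∆wee1 (wee1::ura4+ with the leu-32 and ura4-D18 alleles) after 15 min in 20 mM H2O2, the same strain untreated, wild type (leu1-32 and ura4-D18 alleles) after the same H2O2 exposure, and wild type untreated. Both strains are h- in mating type, lack ura4 at its own locus and carry a leu mutation, and the label wee1::ura4+ stands for an insertion of the ura4+ marker at wee1. All cultures were in mid-log growth in rich yeast extract medium. The files hold 1 pooled value per gene and group, in FPKM (fragments mapped to a gene, scaled by transcript length and by library). No spread between libraries could therefore be shown, and depth is unknown.

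Cdc2 is the cyclin-dependent kinase that drives cells into mitosis. The kinases Wee1 and Mik1 hold it inactive by phosphorylating a tyrosine near its amino end, and the phosphatase Cdc25, helped by the minor phosphatase Pyp3, removes that phosphate. Upstream, the kinases Cdr1 and Cdr2 sit in nodes on the cortex at mid-cell and restrain Wee1, while the polarity kinase Pom1 spreads from the cell ends and restrains Cdr2. The switch is regulated largely through protein amount, location and phosphorylation, which RNA levels do not measure.

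The coding sequences at the centre of this switch are shown first, because the tyrosine of Cdc2 is the target on which the products of 4 of the other genes act. Each line gives 27 coding bases, 5′ to 3′ on the gene's own strand, from the RefSeq assembly ASM294v3. Capitals mark the codon of the inhibitory tyrosine in cdc2, of the aspartate in the catalytic loop of each kinase, and of the catalytic cysteine of each phosphatase.
cdc2: ggggaaggaaccTATggcgttgtttat
wee1: tatgttcatttgGATttaaagcctgct
mik1: tttgttcatttaGACgttaagccttcc
cdc25: cttgtttttcatTGTgaacatagtgcg
pyp3: attatagtccatTGTtcagcgggttgt
The cdc2 stretch holds codon 15, which lies in coding exon 2 of 5, and is printed spliced, over chrII:1500370-1500464 on the plus strand. The wee1 stretch lies at chrIII:724298-724324 (plus strand, codon 693 of 877, in a gene with 1 coding exon), and the mik1 stretch at chrII:223003-223029 (plus strand, codon 417 of 581, in the second of its coding exons). The cdc25 stretch lies at chrI:480089-480115 (minus strand, codon 480 of 596, in a gene with 1 coding exon), and the pyp3 stretch at chrI:5299609-5299635 (plus strand, codon 227 of 303, in the second of its coding exons). The authors' build was not found in the labels or headers, but 927 of 929 chromosome I genes alone in their locus share a start or end with this assembly, as do 763 of 764 on chromosome II and 385 of 387 on chromosome III. The protein sequence that the files list for each of the 8 genes was identical to the translated RefSeq coding sequence.

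The strain labels were checked first. The wee1 transcript stood at 15.5 FPKM in the H2O2 pool labelled ∆wee1 and 16.1 FPKM in the untreated pool with that label, against 8.17 FPKM in wild type after H2O2 and 8.91 FPKM in untreated wild type. The gene named as deleted was therefore higher, not absent, in both pools with the deletion label. A value per gene does not show which part of wee1 these reads came from. The ura4 gene, the inserted marker, stood at 235 and 185 FPKM in the H2O2 and untreated pools labelled ∆wee1, against 0.0704 and 0.131 FPKM in the H2O2 and untreated wild-type pools. The mutants are therefore called the pools labelled ∆wee1, and every strain direction rests on that label. Despite these levels, the authors' deposited table does not call ura4 different between the labels. Its q-values there (p-values adjusted for multiple tests) are 0.285 untreated and 0.546 after H2O2. Of the M-cell genes that mark the h- mating type, mfm2 was between 79.0 and 267 FPKM in the 4 pools, mam2 between 12.7 and 15.8 FPKM and mam1 between 8.25 and 12.4 FPKM. The other M-cell genes were as low as the P-cell genes map2 and map3 (2.13 to 3.93 FPKM), with mfm1 between 1.72 and 2.57 FPKM and mfm3 between 1.37 and 3.56 FPKM.

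The 4 pools also differed in RNA that is not messenger RNA. Nuclear protein-coding genes held 93.5% and 86.8% of the summed FPKM in the H2O2 and untreated pools labelled ∆wee1, and 73.2% and 95.1% in the H2O2 and untreated wild-type pools. The srp7 RNA of the signal recognition particle was at 303 and 778 FPKM in the H2O2 and untreated pools labelled ∆wee1, against 16154 and 399 FPKM in the H2O2 and untreated wild-type pools. The summed FPKM of coding genes was 1255734 and 1142262 in the H2O2 and untreated pools labelled ∆wee1, and 1559879 and 1313423 in the H2O2 and untreated wild-type pools. The part of these differences in the results was not tested, apart from the rescaled ratios given below. In bulk RNA, fewer cells that express a gene and less RNA per cell cannot be told apart.

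The 8 genes ranged from low to middling levels. In untreated wild type their order was cdc2, pyp3, cdr2, cdc25, cdr1, pom1, mik1 and wee1, from 71.5 FPKM for cdc2 to 8.91 FPKM for wee1, which lies at percentile 11.1 of 4949 measured nuclear protein-coding genes. Of the 7 neighbouring pairs in that order, the cdc2 and pyp3 levels and the cdr2 and cdc25 levels lay more than 2 standard errors apart, and the other pairs did not. In the H2O2 pool labelled ∆wee1 the order was pyp3, cdc2, cdr2, cdr1, wee1, pom1, cdc25 and mik1, with cdc25 at 10.2 FPKM. There the gaps from cdc2 to cdr2 and from cdr1 to wee1 exceeded 2 standard errors. In the untreated pool labelled ∆wee1, cdr1, wee1, pom1, mik1 and cdc25 spanned only 16.2 to 12.3 FPKM, and no neighbouring pair among them was further apart than 2 standard errors. The standard errors used here are those that the fold changes and statistics of the authors' deposited table imply. They exceed the errors behind the authors' p-values by a median factor of 1.42, so a gap within 2 of them is not shown to be absent. The genes differed in how far their level varied over the 4 pools. The highest pool was 1.97-fold over the lowest for wee1, 1.99-fold for mik1, 2.01-fold for cdc25 and 1.98-fold for pyp3, but 1.23-fold for cdc2 and 1.21-fold for cdr2.

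**Figure D1:**
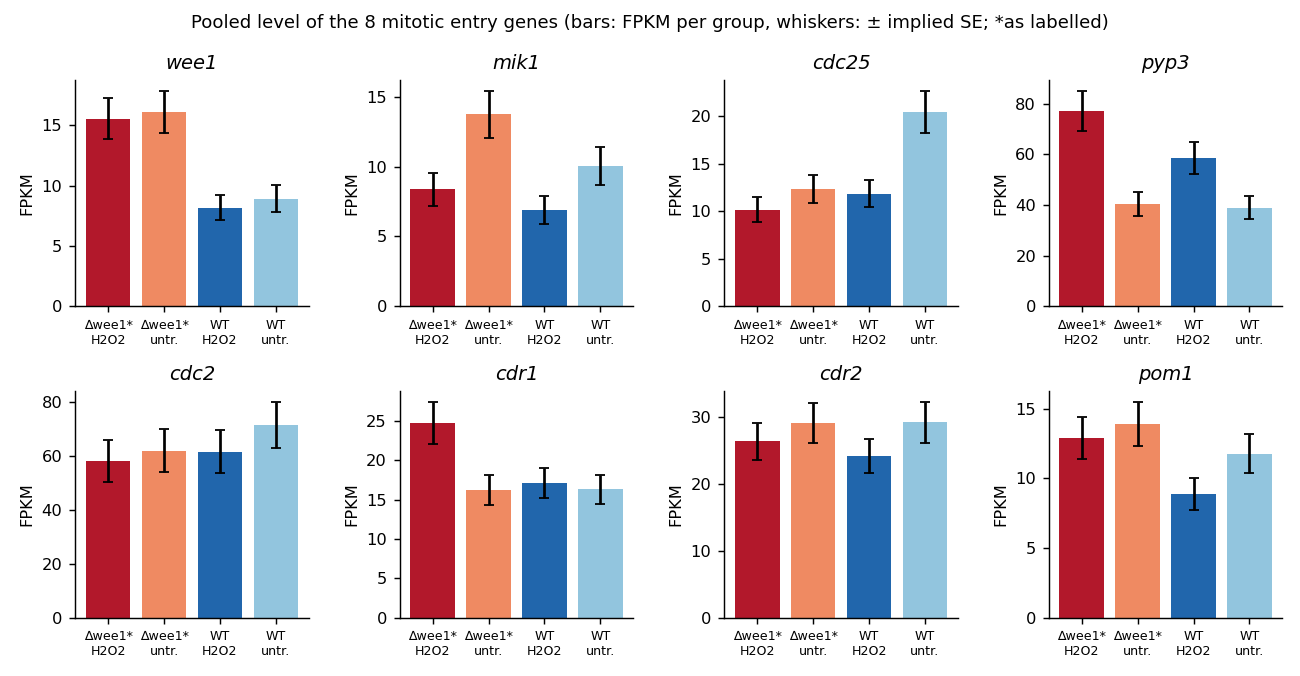
Pooled FPKM of each of the 8 genes in the 4 groups, with ∆wee1 meaning the pools with that label, untr. meaning untreated and whiskers showing ± the error that the authors' deposited table implies. The wee1 bars are 15.5 and 16.1 FPKM in the pools labelled ∆wee1 and 8.17 and 8.91 FPKM in wild type, while cdc2 stays between 58.1 and 71.5 FPKM.

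Each comparison between labels or treatments held 2 or 3 calls among the 8 genes, in both directions except between the H2O2 pools, where all were higher in the pool labelled ∆wee1. A gene is said to rise, fall or change where the authors' deposited table lists it at a q-value (a p-value adjusted for multiple tests) under 0.05. Between the untreated pools, the authors' deposited table called 2 of the 8 genes, wee1 higher and cdc25 lower in the pool labelled ∆wee1, beside 8.85% of all genes tested. Between the H2O2 pools it called 3 of 8, wee1, cdr1 and pom1, and the authors' deposited table called 13.5% of all genes there (6.51% higher). After H2O2 in wild type it called pyp3 higher and cdc25 lower, 2 of 8, beside 14.4% of all genes in the authors' deposited table. After H2O2 in the strain labelled ∆wee1 it called pyp3 and cdr1 higher and mik1 lower, 3 of 8, beside 9.47% of all genes in the authors' deposited table. The median log2 ratio of the 8 genes was 0.02 between the untreated pools, 0.32 between the H2O2 pools, -0.24 for H2O2 in wild type and -0.09 for H2O2 in the strain labelled ∆wee1. The medians over measured coding genes were 0.03, 0.05, -0.03 and -0.03 in the same order. Because the 8 genes were chosen with earlier results of these data known, these counts and medians are descriptive only.

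**Figure D2:**
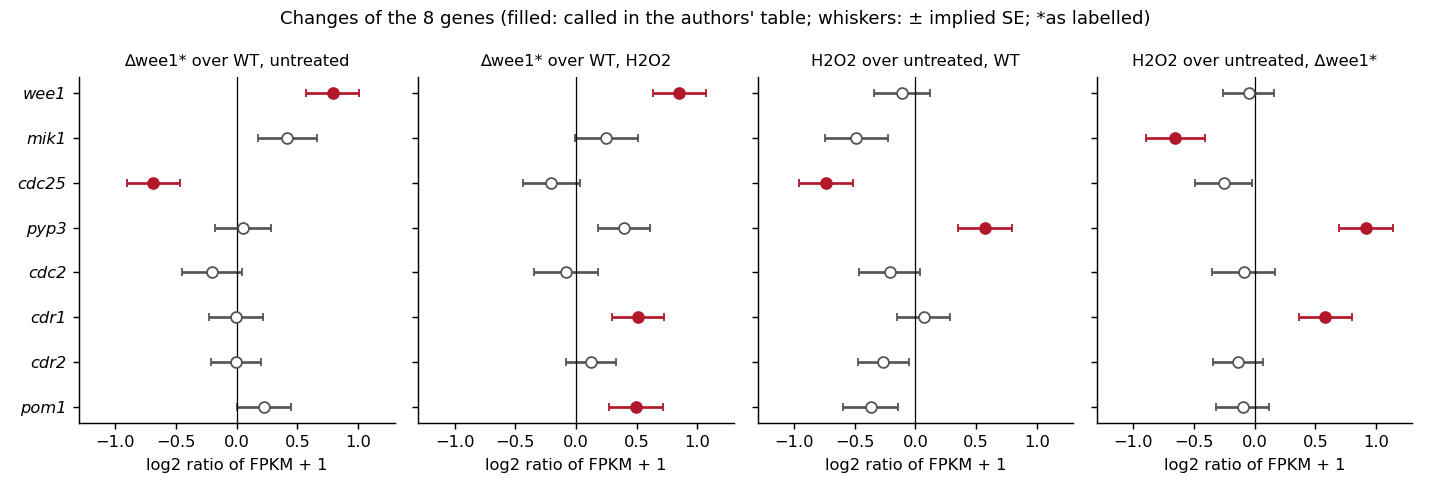
Log2 ratios of FPKM + 1 for the 8 genes in 4 comparisons, with ± the implied standard error, and with points filled where the authors' deposited table calls the gene. The filled points are wee1 and cdc25 between untreated pools, wee1, cdr1 and pom1 between H2O2 pools, cdc25 and pyp3 for H2O2 in wild type, and mik1, pyp3 and cdr1 for H2O2 in the strain labelled ∆wee1.

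The cdc2 transcript (SPBC11B10.09), which encodes the kinase at the centre of the switch, changed in none of these comparisons. Its level was 58.1 and 62.0 FPKM in the H2O2 and untreated pools labelled ∆wee1, against 61.6 and 71.5 FPKM in the H2O2 and untreated wild-type pools. The highest value was in untreated wild type and the other 3 lay close together. The log2 ratio of the pool labelled ∆wee1 over wild type was -0.20 ± 0.25 untreated and -0.08 ± 0.26 after H2O2 (± is the implied standard error throughout), and the H2O2 ratio was -0.21 ± 0.25 in wild type and -0.09 ± 0.26 in the strain labelled ∆wee1. The files place cdc2 in a locus of 3 genes (chrII:1498445-1502095) that also holds the antisense RNA cdc2-antisense-1. That RNA stood at 5.46 and 6.38 FPKM in the H2O2 and untreated pools labelled ∆wee1, against 2.94 and 2.49 FPKM in the H2O2 and untreated wild-type pools, with ratios between the labels of 0.71 ± 1.35 after H2O2 and 1.08 ± 1.37 untreated. Since the strand setting of the counting is not given, reads from cdc2 and its antisense partner cannot be told apart here.

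Of the kinases that inhibit Cdc2, wee1 (SPCC18B5.03, chrIII:721788-725835) differed between the labels, and mik1 fell with H2O2 in the strain labelled ∆wee1. The wee1 level was 1.73-fold higher in the untreated pool labelled ∆wee1 than in untreated wild type, a log2 ratio of 0.79 ± 0.22 with a q-value of 0.000819 in the authors' deposited table. Between the H2O2 pools the ratio was 0.85 ± 0.22 with the same q-value in the authors' deposited table. H2O2 itself moved wee1 by -0.05 ± 0.21 in the strain labelled ∆wee1 and by -0.11 ± 0.23 in wild type, and neither ratio passed the test. The 4 wee1 values thus form a high pair and a low pair that follow the label, not the treatment.

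The mik1 gene (SPBC660.14, chrII:221358-224117) encodes the second kinase for the same tyrosine. Its level was 8.36 FPKM in the H2O2 pool labelled ∆wee1 and 13.7 FPKM in the untreated pool with that label, against 6.88 FPKM in wild type after H2O2 and 10.04 FPKM in untreated wild type. Within each label the H2O2 pool was the lower one, and within each treatment the pool labelled ∆wee1 was the higher one. With H2O2 it fell by 0.65 ± 0.25 on the log2 scale in the strain labelled ∆wee1, with a q-value of 0.0028 in the authors' deposited table. In wild type the H2O2 ratio was -0.49 ± 0.26, at a q-value of 0.0511 in the authors' deposited table, just outside the threshold. Between the labels the ratio was 0.42 ± 0.24 untreated (q = 0.0979 in the authors' deposited table) and 0.25 ± 0.26 after H2O2. Summed, wee1 and mik1 stood at 23.9 and 29.8 FPKM in the H2O2 and untreated pools labelled ∆wee1, against 15.1 and 19.0 FPKM in the H2O2 and untreated wild-type pools.

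With H2O2 in wild type the phosphatase genes moved in opposite directions, and in the strain labelled ∆wee1 pyp3 alone passed the test. The cdc25 gene (SPAC24H6.05, chrI:479228-482556), which encodes the main activator of Cdc2, stood at 10.2 FPKM in the H2O2 pool labelled ∆wee1 and 12.3 FPKM in the untreated pool with that label, against 11.9 FPKM in wild type after H2O2 and 20.4 FPKM in untreated wild type. Untreated wild type stood apart from the other 3 pools, which lay close together. With H2O2 in wild type cdc25 fell by 0.74 ± 0.22 on the log2 scale, with a q-value of 0.000819 in the authors' deposited table. In the untreated pool labelled ∆wee1 it was lower than in untreated wild type, at a log2 ratio of -0.69 ± 0.22 with the same q-value in the authors' deposited table. With H2O2 in the strain labelled ∆wee1 the ratio was -0.25 ± 0.23 (q = 0.37 in the authors' deposited table), and between the H2O2 pools it was -0.20 ± 0.23 (q = 0.533 in the authors' deposited table).

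The pyp3 gene (SPAC11E3.09, chrI:5298656-5300189) encodes the minor tyrosine phosphatase that acts alongside Cdc25. Its level was 77.2 FPKM in the H2O2 pool labelled ∆wee1 and 40.4 FPKM in the untreated pool with that label, against 58.6 FPKM in wild type after H2O2 and 39.0 FPKM in untreated wild type. The untreated pools lay close together and both H2O2 pools lay above them. With H2O2 pyp3 rose 1.89-fold in the strain labelled ∆wee1, a log2 ratio of 0.92 ± 0.22 with a q-value of 0.000819 in the authors' deposited table. In wild type it rose 1.49-fold, a log2 ratio of 0.57 ± 0.22 with a q-value of 0.0028 in the authors' deposited table. Between the H2O2 pools the ratio of the pool labelled ∆wee1 over wild type was 0.39 ± 0.21, at a q-value of 0.0611 in the authors' deposited table, and between the untreated pools it was 0.05 ± 0.23.

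Of the upstream kinases, cdr1 rose with H2O2 in the strain labelled ∆wee1, pom1 was higher there than in wild type after H2O2, and cdr2 did not pass the test in any comparison. The cdr1 gene (SPAC644.06c, chrI:2679468-2682516), also known as nim1 for its role as a mitotic inducer, stood at 24.8 FPKM in the H2O2 pool labelled ∆wee1 and 16.2 FPKM in the untreated pool with that label, against 17.1 FPKM in wild type after H2O2 and 16.3 FPKM in untreated wild type. Only the first of these 4 values stood away from the rest. The H2O2 ratio in the strain labelled ∆wee1 was 0.58 ± 0.22 with a q-value of 0.00393 in the authors' deposited table, while in wild type it was 0.07 ± 0.22. Between the H2O2 pools cdr1 was higher in the pool labelled ∆wee1 by a log2 ratio of 0.51 ± 0.22, with a q-value of 0.0102 in the authors' deposited table.

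The cdr2 gene (SPAC57A10.02, chrI:1364749-1367968), which encodes the kinase that organises the nodes, stood at 26.4 and 29.1 FPKM in the H2O2 and untreated pools labelled ∆wee1, against 24.1 and 29.2 FPKM in the H2O2 and untreated wild-type pools. Its ratios lay between -0.26 ± 0.21 (H2O2 in wild type) and 0.12 ± 0.21 (between the H2O2 pools). The pom1 gene (SPAC2F7.03c, chrI:534120-537869), which encodes the polarity kinase, stood at 12.9 and 13.9 FPKM in the H2O2 and untreated pools labelled ∆wee1, against 8.88 and 11.8 FPKM in the H2O2 and untreated wild-type pools. The wild-type H2O2 pool was the low one. Between the H2O2 pools pom1 was higher in the pool labelled ∆wee1 by a log2 ratio of 0.49 ± 0.23, with a q-value of 0.0205 in the authors' deposited table. Its H2O2 ratio was -0.10 ± 0.22 in the strain labelled ∆wee1 and -0.37 ± 0.23 in wild type (q = 0.112 in the authors' deposited table for wild type).

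The wild-type H2O2 pool, which had the largest coding sum, is one side of 2 of these comparisons. With FPKM rescaled to equal coding sums, the ratio of the H2O2 pool labelled ∆wee1 over wild type became 1.13 for wee1, 0.80 for cdr1, 0.78 for pom1 and 0.70 for pyp3, while the median of all coding genes became 0.35. Under the same rescaling the wild-type H2O2 ratio became -0.97 for cdc25 and 0.33 for pyp3, beside a coding median of -0.27. Each ratio called in the authors' deposited table kept its sign under every alternative scaling and pseudocount tried.

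**Figure D3:**
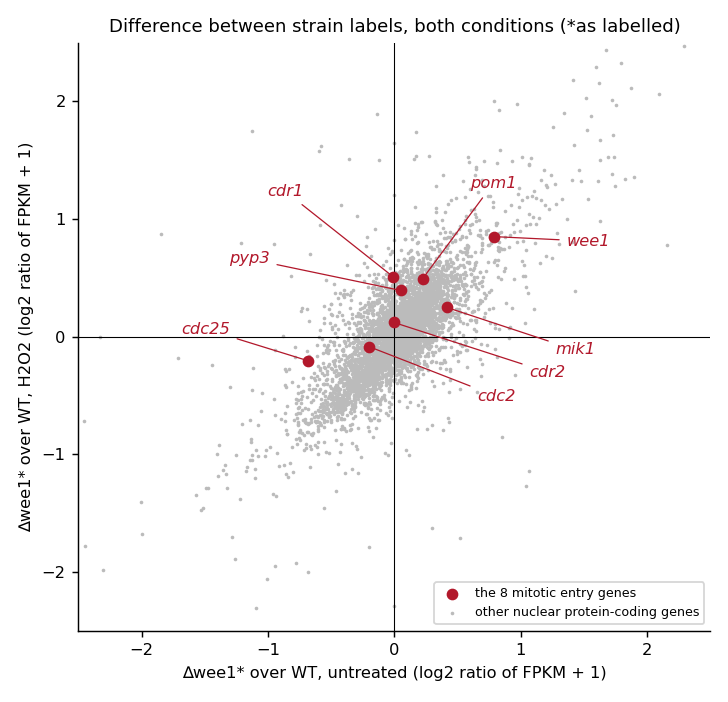
Each point is a nuclear protein-coding gene, with the log2 ratio of the pool labelled ∆wee1 over wild type untreated on the x axis and after H2O2 on the y axis, and the 8 genes in red. The wee1 point lies at 0.79 and 0.85, cdc25 at -0.69 and -0.20, and 36 of 4949 genes fall outside the axes at 2.5.

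Whether the H2O2 response itself differed between the strains was tested per gene as the difference of the log2 ratios, with a two-sided z test built from the implied errors and Benjamini-Hochberg adjustment over 6167 genes. None of the 8 genes passed, each with an adjusted p of 0.9999 in this z test, and 0 of 8 had an unadjusted p under 0.05. Over all genes 0.324% passed, and 1.57% had an unadjusted p under 0.05. The implied errors exceed those behind the authors' p-values by a median factor of 1.42. This z test is therefore stricter than the authors' calls, and its intervals are wider than the errors behind those calls would give. The largest differences were those of cdr1 and cdc25. For cdr1 the response in the strain labelled ∆wee1 minus that in wild type was 0.52 ± 0.31, with a 95% interval from -0.09 to 1.12. For cdc25 it was 0.48 ± 0.32, with a 95% interval from -0.15 to 1.12. For pyp3 it was 0.34 ± 0.31 (95% interval -0.27 to 0.96), and for mik1 -0.17 ± 0.36 (95% interval -0.86 to 0.53). These intervals are wide enough to hold both no difference and a difference as large as most of the H2O2 ratios themselves. The fall of cdc25 called in wild type, and the changes of mik1 and cdr1 called in the strain labelled ∆wee1, are therefore not shown to differ between the strains. Nor are they shown to be alike.

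The H2O2 pool labelled ∆wee1 was also set against untreated wild type, which takes label and treatment together. The authors' deposited table called 4 of the 8 genes there, wee1, pyp3 and cdr1 higher and cdc25 lower, beside 16.3% of all genes tested (9.26% higher and 7.07% lower). The log2 ratios of the called genes were 0.74 ± 0.22 for wee1, 0.97 ± 0.22 for pyp3, 0.57 ± 0.22 for cdr1 and -0.94 ± 0.22 for cdc25. The cdc25 level there was 0.521 of the wild-type level on the FPKM + 1 scale. The ratio of mik1 was -0.24 ± 0.25 and that of cdc2 -0.29 ± 0.25. This comparison shares its pools with the others and adds no independent measurement.

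Set against each other within a pool, cdc25 and wee1 stood in opposite order under the labels, though not beyond 2 standard errors in the untreated pool labelled ∆wee1. The cdc25 level divided by the wee1 level was 0.654 and 0.764 in the H2O2 and untreated pools labelled ∆wee1, against 1.45 and 2.29 in the H2O2 and untreated wild-type pools. On the log2 scale these ratios were -0.61 ± 0.24 and -0.39 ± 0.24 in the H2O2 and untreated pools labelled ∆wee1, against 0.54 ± 0.25 and 1.20 ± 0.24 in the H2O2 and untreated wild-type pools. By FPKM, cdc25 was thus the lower one in both pools with the deletion label and the higher one in both wild-type pools. The gap in the untreated pool labelled ∆wee1 lay within 2 of the implied standard errors, which are wider than those behind the authors' calls. FPKM is scaled by transcript length, and the part of wee1 that gave the reads in the pools labelled ∆wee1 is unknown. The order of the transcripts in number there is therefore not settled. Against mik1, the cdc25 ratio was 1.22 and 0.898 in the H2O2 and untreated pools labelled ∆wee1, against 1.72 and 2.04 in the H2O2 and untreated wild-type pools. The pyp3 level divided by the cdc25 level was 7.60 and 3.28 in the H2O2 and untreated pools labelled ∆wee1, against 4.94 and 1.91 in the H2O2 and untreated wild-type pools. Within each label this ratio was higher in the H2O2 pool. The cdr1 level divided by the cdr2 level was 0.940 and 0.558 in the H2O2 and untreated pools labelled ∆wee1, against 0.710 and 0.559 in the H2O2 and untreated wild-type pools. These ratios do not depend on the scaling between pools, but they rest on the same pooled values and no test was made on them.

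**Figure D4:**
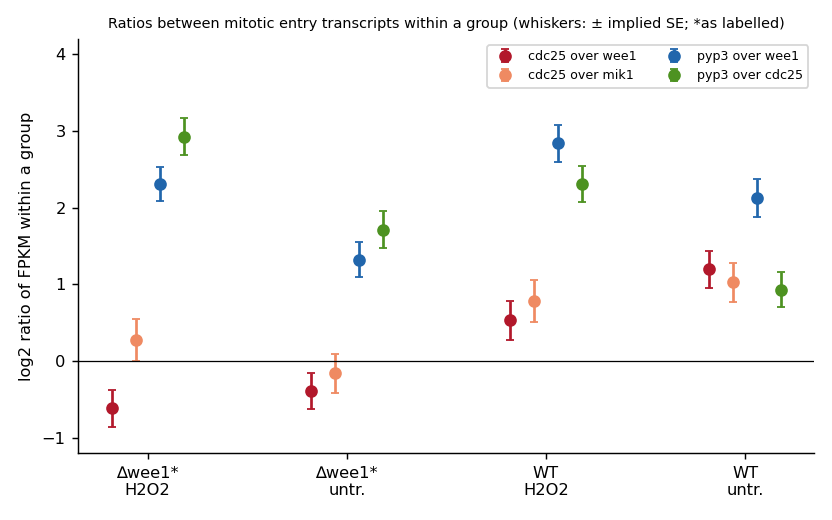
Log2 of the ratio between a pair of transcripts in FPKM within each of the 4 pools, with ± the implied standard error. The cdc25 over wee1 points lie at -0.61 and -0.39 in the pools labelled ∆wee1 and at 0.54 and 1.20 in the wild-type pools.

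The genes beside each member were read for changes that a whole region might share. The genes on either side of wee1 did not pass the test in any comparison. The nearest coding gene, rsm18, stood at 184 and 203 FPKM in the H2O2 and untreated pools labelled ∆wee1, against 185 and 202 FPKM in the H2O2 and untreated wild-type pools, while the noncoding SPNCRNA.1154 stayed under 1 FPKM. Of 18 flanking or overlapping genes around the 8 members, the authors' deposited table called 4 in at least 1 of the 5 comparisons, beside 28.9% of all genes tested. The 4 were ssb1, msi2, pht1 and pas1. The ssb1 gene, which encodes a single-stranded DNA binding protein of the replication machinery, overlaps the start of mik1 by their RefSeq spans, though not by the files' coordinates. Its part in the mik1 values was not tested. It stood at 157 and 192 FPKM in the H2O2 and untreated pools labelled ∆wee1, against 65.8 and 88.7 FPKM in the H2O2 and untreated wild-type pools. Its ratio between the labels was 1.24 ± 0.21 after H2O2 and 1.10 ± 0.21 untreated, both called in the authors' deposited table. On the other side of mik1, msi2 had ratios of 1.07 ± 0.20 and 0.88 ± 0.20 for the same comparisons, both called in the authors' deposited table. Beside cdc2, the histone variant gene pht1 was higher in the pools labelled ∆wee1, by 0.78 ± 0.21 after H2O2 and 0.75 ± 0.21 untreated, with both ratios called in the authors' deposited table. Beside cdr2, the cyclin gene pas1 was lower there, at -0.75 ± 0.21 after H2O2 and -1.08 ± 0.20 untreated, with both ratios called in the authors' deposited table. With H2O2 in wild type that table also called ssb1 lower, at -0.43 ± 0.21, and pas1 lower, at -0.64 ± 0.20. In the strain labelled ∆wee1 the H2O2 ratios of ssb1 and pas1 were -0.29 ± 0.21 and -0.31 ± 0.21, and neither passed.

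Motifs were searched in the 250 bases before the annotated start of 7 of the genes on both strands, leaving out cdc2 because its locus is shared. By RefSeq spans, 6 of the 7 windows overlap another annotated gene (ssb1 for mik1, hxk1 and SPNCRNA.2197 for cdc25, SPNCRNA.4387 for pyp3), and only that of cdr2 does not. They were ACGCGT, the core bound by the G1/S factor MBF, GTAAACAA, bound by forkhead factors of mitotic genes, and TGACGT, the core bound by the stress factor Atf1. No match overlapped another. All matches found are shown, as a description of these windows, and capitals mark the match.
mik1: aaaaacgcgaACGCGTcatg
cdc25 far: tcttatgtatTTGTTTACacatacacaa
cdc25 near: gtatggacatGTAAACAAacatacaaga
pyp3: atcaatacagTTGTTTACaacctataaa
The mik1 window lies at chrII:221338-221357 on the plus strand, with the match 10 bases before the start that the files give, which is inside the longer RefSeq span of mik1. The cdc25 windows lie at chrI:482773-482800 and chrI:482686-482713 on the minus strand, with matches 234 and 147 bases before the start, of which the far one reads on the opposite strand. The pyp3 window lies at chrI:5298482-5298509 on the plus strand, with a match on the opposite strand 164 bases before the start. Over 1783 coding genes alone in their locus, 2.41% had ACGCGT in this window, 9.09% GTAAACAA and 4.54% TGACGT. None of the 7 windows held TGACGT, and those of wee1, cdr1, cdr2 and pom1 held none of the 3 motifs.

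For wee1, cdc25, mik1 and pyp3, the 3 genes with the nearest profile over the 4 pools were found. The search covered 3494 coding genes that have a symbol and a mean of at least 5 FPKM, and left out coding genes without a symbol. Likeness was the Euclidean distance between log2(FPKM + 1) profiles, each centred on its mean, and with 4 values a small distance is easily met. Nearest to wee1 was fin1, which encodes a mitotic kinase of the NIMA family, at a distance of 0.0412. The fin1 level was 36.2 and 38.0 FPKM in the H2O2 and untreated pools labelled ∆wee1, against 19.6 and 22.1 FPKM in the H2O2 and untreated wild-type pools. The histone genes htb1 and pht1 came next, at 0.0690 and 0.119, and the median distance to wee1 was 0.850. Nearest to cdc25 were fur4 (0.118), bgl2 (0.151) and pgt1 (0.153), beside a median of 0.774. Nearest to mik1 were rad55 (0.0327), far11 (0.0710) and agl1 (0.0739), beside a median of 0.689. Nearest to pyp3 were oca2 (0.0825), srk1 (0.101) and mpr1 (0.109), beside a median of 0.898. Of these, srk1 encodes the kinase that Sty1 activates under stress and that phosphorylates Cdc25, and mpr1 encodes a phosphotransfer protein of the peroxide-sensing pathway upstream of Sty1.

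A wider list of 40 genes around the switch was counted, of which 39 were found and measured. It was chosen with earlier results of these data known. Its counts and medians, and those of its parts below, therefore only describe the list, and no test was made on them. Between the labels, more of its genes were higher than lower in the pools labelled ∆wee1. Untreated, the authors' deposited table called 4 of the 39 higher and 1 lower, beside 4.64% of all genes higher and 4.21% lower. After H2O2 it called 8 higher and 1 lower, beside 6.51% of all genes higher and 7.01% lower in the authors' deposited table. The median log2 ratio of the list was 0.10 untreated and 0.18 after H2O2, beside 0.03 and 0.05 over coding genes. With H2O2 the count was mostly of falls. In wild type the authors' deposited table called 1 higher and 6 lower, beside 6.96% of all genes higher and 7.47% lower, and the list's median was -0.22. In the strain labelled ∆wee1 the authors' deposited table called 1 higher and 5 lower, beside 5.34% of all genes higher and 4.13% lower, and the list's median was -0.14. The coding median was -0.03 for both responses.

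Among the Cdc2 partners and activators, 10 genes, the authors' deposited table called 4 lower after H2O2 in wild type and 3 in the strain labelled ∆wee1, beside 7.47% and 4.13% of all genes. Between the H2O2 pools it called 2 of the 10 higher and 1 lower in the pool labelled ∆wee1, beside 6.51% and 7.01% of all genes in the authors' deposited table. The suc1 gene, which encodes the small subunit that binds Cdc2, stood at 124 and 106 FPKM in the H2O2 and untreated pools labelled ∆wee1, against 88.6 and 91.5 FPKM in the H2O2 and untreated wild-type pools. Its ratio between the H2O2 pools was 0.48 ± 0.21 (q = 0.0165) and that of mcs6 0.48 ± 0.23 (q = 0.027), with both q-values from the authors' deposited table. The mcs6 gene, which encodes a kinase that phosphorylates the activation loop of Cdc2, stood at 52.9 and 78.5 FPKM in the H2O2 and untreated pools labelled ∆wee1, against 37.6 and 78.5 FPKM in the H2O2 and untreated wild-type pools. Its H2O2 ratios were -0.56 ± 0.22 in the strain labelled ∆wee1 and -1.04 ± 0.23 in wild type, both called in the authors' deposited table. The B-type cyclin gene cig1 stood at 15.1 and 21.7 FPKM in the H2O2 and untreated pools labelled ∆wee1, against 21.8 and 33.9 FPKM in the H2O2 and untreated wild-type pools, and the authors' deposited table called it lower in every comparison. The Cdc2 inhibitor gene rum1 fell with H2O2 by 0.50 ± 0.22 in the strain labelled ∆wee1 and by 0.66 ± 0.23 in wild type, both called in the authors' deposited table. The mitotic cyclin gene cdc13 fell by 0.50 ± 0.22 in wild type, with a ratio of -0.31 ± 0.22 in the strain labelled ∆wee1 that did not pass.

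Among 10 genes that control Cdc25, srk1 rose and clp1 fell in both strains with H2O2 in the authors' deposited table. This is 1 of 10 in each direction, beside 6.96% of all genes higher and 7.47% lower in wild type. In the strain labelled ∆wee1 the shares of all genes were 5.34% higher and 4.13% lower. The srk1 level was 126 and 63.1 FPKM in the H2O2 and untreated pools labelled ∆wee1, against 88.4 and 58.0 FPKM in the H2O2 and untreated wild-type pools, with H2O2 ratios of 0.98 ± 0.23 in the strain labelled ∆wee1 and 0.60 ± 0.23 in wild type. The clp1 gene, which encodes a phosphatase that acts on Cdc25, had H2O2 ratios of -0.63 ± 0.26 in the strain labelled ∆wee1 and -0.71 ± 0.27 in wild type. Between the labels, the ubiquitin ligase gene pub1 and the 14-3-3 gene rad25 were higher in the pools labelled ∆wee1 in both conditions, both called in the authors' deposited table. With srk1, at 0.50 ± 0.23 between the H2O2 pools, the calls were 3 of 10 after H2O2 and 2 of 10 untreated. The shares of all genes called higher were 6.51% and 4.64% in the same order. The ratio of pub1 was 0.50 ± 0.21 after H2O2 and 0.42 ± 0.21 untreated, and that of rad25 0.57 ± 0.28 and 0.60 ± 0.30.

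Among 9 measured genes of mitotic commitment, plo1 and fin1 were higher in the pools labelled ∆wee1 in both conditions, called in the authors' deposited table. That is 2 of 9 untreated, and 3 of 9 after H2O2 with ssp2 (0.40 ± 0.20), beside 4.64% and 6.51% of all genes higher. With H2O2 in wild type it called 1 of 9 lower, ssp1 (-0.46 ± 0.24), beside 7.47% of all genes. With H2O2 in the strain labelled ∆wee1 it called 1 of 9 lower, plo1 (-0.51 ± 0.21), beside 4.13% of all genes. The polo kinase gene plo1 stood at 25.0 and 35.9 FPKM in the H2O2 and untreated pools labelled ∆wee1, against 15.7 and 21.1 FPKM in the H2O2 and untreated wild-type pools. Its ratio between the labels was 0.64 ± 0.22 after H2O2 and 0.74 ± 0.22 untreated, and that of fin1 was 0.85 ± 0.24 and 0.76 ± 0.24. Among the 10 genes of the Cdr nodes and of cell polarity, the authors' deposited table called 0 in these 4 comparisons, with ratios from -0.68 to 0.41. Of all genes, that table called 8.85% between the untreated pools and 13.5% between the H2O2 pools. With H2O2 it called 14.4% in wild type and 9.47% in the strain labelled ∆wee1, so that 0 of 10 is near these shares. At an unadjusted Cuffdiff p under 0.05 that table holds 1 gene between the untreated pools, 0 between the H2O2 pools, 1 for H2O2 in wild type and 2 for H2O2 in the strain labelled ∆wee1, beside 17.0%, 22.9%, 24.1% and 17.4% of all genes in the same order. In the authors' deposited table nif1, which encodes an inhibitor of Cdr1, was called only between the H2O2 pool labelled ∆wee1 and untreated wild type, at 0.74 ± 0.28. That is 1 of 10 there, beside 16.3% of all genes. The genes srk1, rad25, fin1, ssp1 and cdc13 lie in loci that the files assign to several genes, so that their reads may be split between neighbours.

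**Figure D5:**
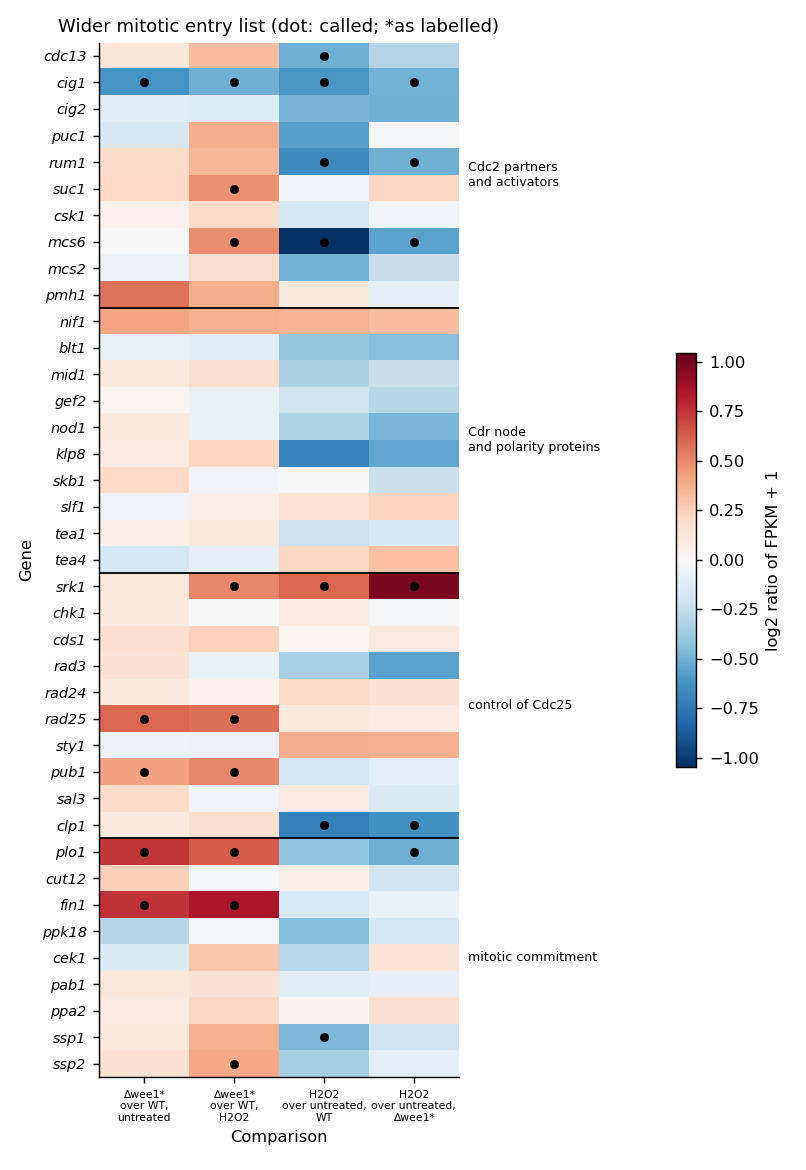
Log2 ratio of FPKM + 1 for the 39 measured genes of the wider list in 4 comparisons, coloured red where higher and blue where lower, with a dot where the authors' deposited table calls the gene. The plo1 and fin1 rows are dotted in both comparisons of labels (0.74 and 0.76 untreated), the mcs6 row shows the deepest blue at -1.04 for H2O2 in wild type, and the srk1 row shows the deepest red at 0.98 for H2O2 in the strain labelled ∆wee1.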

How the data were processed

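TRIzol RNA went into a stranded TruSeq mRNA preparation, per the labels' protocols. The tools named are cutadapt (read trimming), HISAT2 (alignment) and Cuffdiff (quantification and comparison), per the submitters' processing notes. Versions, build, annotation and strand handling are not given in the sources. The authors deposited FPKM values, 1 per gene and group over 2 libraries. The authors' deposited table of 6 pairs of groups lists a test statistic (a score) per gene beside its log2 fold change, p-value and q-value, per the file headers. The lowest p-value in the authors' deposited table is 5e-05. The series' design text calls the libraries biological replicates.

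A planned linear model over libraries needs values per library and was replaced by the branch written for 1 value per group. Here ratios were recomputed as log2 of FPKM + 1, which understates changes of low genes, and turned so that H2O2 stands over untreated and the label ∆wee1 over wild type. The standard error is the authors' fold change over the authors' statistic. Variances per group were solved from the 6 pairs for 6200 genes, with a relative residual of at most 0.000331, and scaled to the pseudocount. On the normal curve, the deviates of the authors' p-values exceed the listed statistics by a median factor of 1.42, and the errors printed here are therefore the wider ones. The z test of the response difference, two-sided, was tested on simulated data drawn with the same implied errors. It missed most true 2-fold differences there. Its z values had a robust SD of 0.452 in the data, so it is strict for most genes. The simulated spread thus does not match that of the data, and the share missed there need not hold here. Genes were measured at a mean of at least 1 FPKM over the groups (6281 genes, 4949 of them nuclear and protein-coding). Genes searched for likeness were nuclear protein-coding genes with a symbol and a mean of at least 5 FPKM. Depth is unknown and no interval that needs it was computed.

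Named genes are the 8 members, wider-list genes called in at least 1 comparison, the strain and RNA markers, the nearest annotated genes and the 3 nearest profiles. The gene nif1, called only in the comparison of the H2O2 pool labelled ∆wee1 with untreated wild type, was named after its values were seen. Members and lists were chosen with earlier results of these data known. The listed gene igo1 had no row under that symbol. Alternatives were pseudocounts of 0 and 5 FPKM, 3 scalings, other call rules and other minimum levels. Biotypes came from RefSeq, with 6737 of 7092 identifiers matched. pandas 2.3.3, numpy 2.4.6, scipy 1.17.1 and matplotlib 3.10.9 were used.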

Additional observations from a re-analysis of the deposited data

How the results depend on the processing

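Every called ratio of the 8 genes kept its sign under rescaling to equal coding sums and under quantile normalization. Pseudocounts of 0 and 5 FPKM cannot turn the sign of a ratio. Centring on the coding median shifted ratios by no more than 0.05, too little to turn a called one. Of 40 ratios, 12 moved by more than their standard error, all under rescaling to equal coding sums, which shifted the coding median to 0.22 (untreated labels), 0.35 (H2O2 labels), -0.27 (H2O2 in wild type), -0.17 (H2O2 in the strain labelled ∆wee1) and 0.03 (both together). With at least a 2-fold change also required, taken from the authors' fold change without a pseudocount, 0 of the 8 genes were called in either direction, except that cdc25 stayed lower (1 gene) in the H2O2 pool labelled ∆wee1 against untreated wild type. At a q-value under 0.01 the members higher between the H2O2 pools became 1. At an unadjusted p under 0.05 the members became 2 higher between the untreated pools, 4 higher between the H2O2 pools and 3 lower with H2O2 in wild type. For the wider list, the 2-fold rule left 0 higher and 0 lower between the labels in either condition, 0 higher and 1 lower with H2O2 in wild type, 0 and 0 with H2O2 in the strain labelled ∆wee1, and 1 and 1 for both together. At a q-value under 0.01 the list had 2 higher between the untreated pools, and 3 higher and 0 lower between the H2O2 pools. It then had 5 lower with H2O2 in wild type and 3 lower with H2O2 in the strain labelled ∆wee1. For both together it had 4 higher and 2 lower. At an unadjusted p under 0.05 the list had 6 higher between the untreated pools and 11 higher between the H2O2 pools. It had 11 lower with H2O2 in wild type, and 2 higher and 8 lower with H2O2 in the strain labelled ∆wee1. For both together 7 were higher and 6 lower. Over all genes and per direction, the 2-fold rule called 0.840% to 4.28%, a q-value under 0.01 2.28% to 6.66% and an unadjusted p under 0.05 7.79% to 14.4%. Other minimum levels and pseudocounts left 0 of the 8 genes past the test of the response difference, with 19 to 22 genes passing over the genome. No paired analysis was possible because the files hold 1 pooled value per group. For the same reason leaving out single libraries was not run.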
